A study of Mus musculus with 9 samples.

Results

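SF3a and SF3b are the protein complexes that, bound to the U2 small nuclear ribonucleoprotein (U2 snRNP), recognise the branch point of an intron. Their transcripts were followed in mouse embryonic stem cells after knockdown of one of their subunits, Phf5a, and after knockdown of Paf1. The 10 members were chosen by gene symbol: Phf5a, Sf3b1, Sf3b2, Sf3b3, Sf3b4, Sf3b5, Sf3b6, Sf3a1, Sf3a2 and Sf3a3. All 10 were measured, among 22180 genes, with 1 probe set per gene (the brightest over the 9 arrays). The cells were the NG4 line of 129/Sv origin, which carries a green fluorescent reporter of Nanog, grown on gelatin with LIF. Each group of 3 arrays had received 1 pLKO.1 lentiviral hairpin (shControl, shPhf5a or shPaf1) and 72 h of puromycin at 2 μg/mL, so that all groups share transduction and selection. Each target is represented by a single hairpin, and nothing in the labels says whether replicates were separate transductions. The values are the authors' deposited expression values, taken to be log2, and a difference of 1 is then a doubling.

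During splicing SF3b holds the branch point adenosine in a pocket formed by Sf3b1 and Phf5a, while SF3a ties SF3b to the U2 snRNP core. The complex serves nearly every intron, including those of the minor, U12-type spliceosome, whose U11/U12 particle also carries SF3b. Phf5a is a small zinc-binding protein, and the title of the series links it to transcriptional elongation and pluripotency. Paf1 gives its name to a complex that travels with RNA polymerase II, so the comparisons ask how SF3 transcripts differed where an SF3b subunit and where an elongation factor had been targeted.

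The labelled cell type was checked first. Of 8 markers of pluripotent cells 7 lay above the median gene (6.70) in shControl, all but Dppa5a, and the list mean lay between 10.65 and 10.71 there, between 10.17 and 10.44 in shPhf5a and between 10.19 and 10.21 in shPaf1. Trophectoderm markers had list means of 7.08 to 7.22 in shControl, 8.11 to 8.40 in shPhf5a and 8.14 to 8.24 in shPaf1, and 7 of 8 rose and 0 fell in shPhf5a, 5 rose and 1 fell in shPaf1. Primitive endoderm markers had 7.12 to 7.24, 7.52 to 7.83 and 7.56 to 7.59, with 4 of 8 higher and 1 lower in shPhf5a and 4 higher and 0 lower in shPaf1. Of the pluripotent cell markers 6 of 8 fell and 0 rose in each knockdown. Fibroblast markers had list means below the median gene (5.90 to 5.93, 5.93 to 5.99 and 6.15 to 6.24), though only 5 or 6 of the 8 lay below it in each array. Of these markers 1 of 8 was higher in shPhf5a, 3 of 8 in shPaf1 and 0 lower in either. Pdgfra was in both this list and the primitive endoderm list. Of all genes 16.7% rose and 20.7% fell in shPhf5a, and 18.0% rose and 17.8% fell in shPaf1. The marker lists moved with the same groups as the SF3 transcripts, and their part in the results was not tested. Bulk RNA cannot tell fewer cells of a type from less RNA per cell. The array shPhf5a replicate 2 stood apart from its group: the SD over genes of its difference was 0.23 from replicate 1 and 0.19 from replicate 3, against 0.12 to 0.16 for every other pair within a group.

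Most members differed from shControl in each knockdown, in both directions, and so did most genes above the median level. Against shControl, 5 of the 10 members fell and 3 rose in shPhf5a, and 6 fell and 1 rose in shPaf1 (limma, adjusted p under 0.05 over all genes). Of all genes 20.7% fell and 16.7% rose in shPhf5a, and 17.8% fell and 18.0% rose in shPaf1. Among the 11090 genes above the median level, where 9 of the 10 members lie, the shares were 35.2% and 26.9% in shPhf5a and 30.7% and 29.2% in shPaf1. The median difference of the members was -0.26 in each knockdown, and that of all genes -0.03 and -0.01. Arrays of the groups did not overlap for 6 members lower and 3 higher in shPhf5a (25.9% and 19.9% of all genes), and for 6 lower and 3 higher in shPaf1 (25.0% and 23.2%). The count of 5 falls in shPhf5a became 3 after quantile normalization, beside 3 rises. It was also 3 when any 1 control array, shPhf5a replicate 1 or shPhf5a replicate 3 was left out, and 7 without shPhf5a replicate 2.

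**Figure D1:**
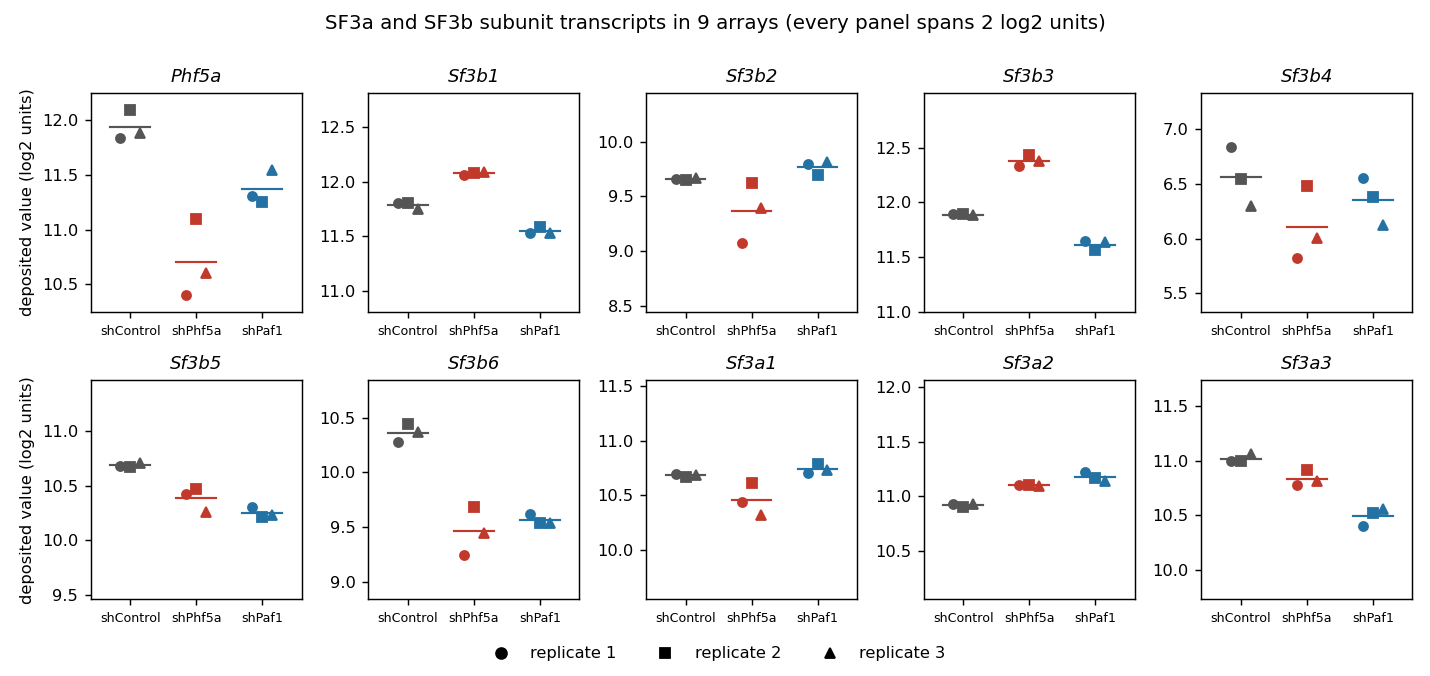
Deposited values (log2 units, vertical axis) of the 10 SF3a and SF3b transcripts in the 3 groups; every point is 1 array, its shape gives the replicate number, lines are group means, and every panel spans the same range. Sf3b1 and Sf3b3 are highest in shPhf5a and lowest in shPaf1, whereas Sf3b6 is lower in all 6 knockdown arrays, and in Phf5a, Sf3b2, Sf3b4, Sf3b5, Sf3b6, Sf3a1 and Sf3a3 shPhf5a replicate 2 is the array of its group nearest to the control.

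The other target, Paf1, was at 10.09, 10.11 and 10.05 in shControl, 9.70, 10.02 and 9.79 in shPhf5a, and 8.68, 8.72 and 8.69 in shPaf1. In shPaf1 it was 2.62-fold lower than control (-1.39, SE 0.08, limma adjusted p = 1.73e-06). Paf1 was also called lower in shPhf5a (-0.25, SE 0.08, adjusted p = 0.0267), with all arrays below the controls. Phf5a itself stood at 11.84, 12.09 and 11.89 in the shControl arrays, at 10.40, 11.10 and 10.60 in shPhf5a and at 11.30, 11.25 and 11.55 in shPaf1. The 3 groups did not overlap, and the order was shControl, shPaf1, shPhf5a. The knockdown left 34.4%, 55.9% and 39.6% of the control mean, with replicate 2 the least depleted. The difference from shControl was -1.24 (SE 0.16, 95% interval -1.60 to -0.88, adjusted p = 0.00024). In shPaf1 it was -0.57 (SE 0.16, adjusted p = 0.0183), with 64.3%, 62.0% and 76.2% of the control mean left. The 2 knockdowns differed by 0.67 (95% interval of shPhf5a minus shPaf1 -1.02 to -0.31, adjusted p = 0.0111). The fall of Phf5a in shPaf1 was lost without shControl replicate 2 (-0.50, adjusted p = 0.0742), shPaf1 replicate 1 (-0.54, 0.0632) or shPaf1 replicate 2 (-0.51, 0.0717).

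The large subunits Sf3b1 and Sf3b3 went opposite ways in the knockdowns. Sf3b1, the HEAT-repeat protein that clamps the branch point helix, had values of 11.81, 11.81 and 11.75 in shControl, 12.06, 12.08 and 12.09 in shPhf5a, and 11.53, 11.59 and 11.53 in shPaf1. All shPhf5a arrays lay above all control arrays and all shPaf1 arrays lay below them. In shPhf5a the rise was 0.29 or 1.22-fold (SE 0.04, adjusted p = 0.000579), and in shPaf1 the difference was -0.24, or 1.18-fold lower (SE 0.04, adjusted p = 0.00179). Sf3b3, a beta-propeller protein that packs against Sf3b1, had 11.89 in each of the 3 control arrays, 12.33, 12.44 and 12.38 in shPhf5a, and 11.64, 11.56 and 11.64 in shPaf1. Here too no array of one group reached another group. Its rise in shPhf5a was 0.49 or 1.41-fold (SE 0.05, adjusted p = 4.56e-05), and its difference in shPaf1 was -0.27, or 1.21-fold lower (SE 0.05, adjusted p = 0.0012).

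Between the knockdowns Sf3b1 was 0.53 higher in shPhf5a (95% interval 0.43 to 0.62, adjusted p = 2.67e-05) and Sf3b3 0.77 higher (0.66 to 0.87, adjusted p = 5.86e-06). In shPhf5a replicate 2, where Phf5a was least depleted, Sf3b1 stood at 122.6% and Sf3b3 at 146.0% of the control mean, against 120.8% and 135.6% in replicate 1. Both therefore rose as far in that array as in the others. After quantile normalization their falls in shPaf1 were smaller, -0.15 for Sf3b1 (adjusted p = 0.0221) and -0.16 for Sf3b3 (0.0244). Averaging both Sf3b3 probe sets made its rise 0.31 (adjusted p = 0.0171). The second probe set was dim (5.51 in shControl, 5.64 in shPhf5a, 5.13 in shPaf1).

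The small SF3b subunits Sf3b6 and Sf3b5 fell in each knockdown, as Phf5a did. Sf3b6, also called p14, has an RNA recognition motif, binds Sf3b1 and lies close to the branch adenosine. Its values were 10.28, 10.44 and 10.37 in shControl, 9.24, 9.69 and 9.45 in shPhf5a, and 9.62, 9.53 and 9.54 in shPaf1. Every knockdown array was below every control array, and the arrays of the knockdowns overlapped. Sf3b6 was 1.87-fold lower in shPhf5a (-0.90, SE 0.10, adjusted p = 9.36e-05) and 1.74-fold lower in shPaf1 (-0.80, SE 0.10, adjusted p = 0.000157). Of the 9 members other than Phf5a, it had the largest difference in either knockdown. The knockdowns differed by -0.10 (95% interval -0.32 to 0.12, adjusted p = 0.528).

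Sf3b5 is a very small protein wedged between Sf3b1 and Sf3b3. It had 10.68, 10.67 and 10.71 in shControl, 10.42, 10.47 and 10.26 in shPhf5a, and 10.31, 10.22 and 10.23 in shPaf1. The controls lay above all other arrays. The fall of Sf3b5 was -0.30 in shPhf5a (SE 0.06, adjusted p = 0.00263) and larger in size, -0.44, in shPaf1 (SE 0.06, adjusted p = 0.000292). The difference between the knockdowns was 0.13 (95% interval -0.0005 to 0.27, adjusted p = 0.136) and passed without shPhf5a replicate 3 (0.19, adjusted p = 0.0268).

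Sf3b2 and Sf3b4, which pair with each other and touch the pre-mRNA upstream of the branch point, passed the test in neither knockdown. Sf3b2 had 9.66, 9.65 and 9.67 in shControl, 9.07, 9.62 and 9.40 in shPhf5a, and 9.80, 9.69 and 9.81 in shPaf1. Its shPhf5a arrays were all lower than the controls but spread widely, and replicate 2 lay close to them. The difference was -0.30 in shPhf5a (95% interval -0.55 to -0.04, adjusted p = 0.0689) and 0.11 in shPaf1 (-0.14 to 0.36, adjusted p = 0.535). Sf3b4 was the one member below the median gene, with 6.84, 6.54 and 6.30 in shControl, 5.82, 6.49 and 6.01 in shPhf5a, and 6.55, 6.38 and 6.13 in shPaf1. Its groups overlapped. The differences of Sf3b4 were -0.46 (-0.87 to -0.04, adjusted p = 0.0846) and -0.21 (-0.62 to 0.21, adjusted p = 0.468). Without shPhf5a replicate 2 both genes passed in shPhf5a, Sf3b2 at -0.42 (adjusted p = 0.00382) and Sf3b4 at -0.65 (adjusted p = 0.0102). Without shPhf5a replicate 1 they shrank to -0.15 (adjusted p = 0.151) and -0.31 (0.250), and Sf3b4 was at -0.32 (0.276) without shControl replicate 1. The mean of both Sf3b2 probe sets differed by -0.19 (adjusted p = 0.0843). With array weights they passed too (adjusted p = 0.0152 and 0.0231), and among genes above the median level Sf3b2 did (0.038). A second, dim Sf3b2 probe set (5.39, 5.31 and 5.22 in the 3 groups) differed by -0.08 in shPhf5a (SE 0.06).

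The 3 SF3a transcripts behaved unlike each other. Sf3a2, whose product contacts the Sm core of U2, had 10.93, 10.90 and 10.93 in shControl, 11.10, 11.10 and 11.10 in shPhf5a, and 11.22, 11.17 and 11.14 in shPaf1. All knockdown arrays were above the controls, by a small margin. Its rise was 0.18, or 1.13-fold, in shPhf5a (SE 0.04, adjusted p = 0.00726) and 0.26, or 1.19-fold, in shPaf1 (SE 0.04, adjusted p = 0.000952). Of the 10 members, only Sf3a2 rose in both. Another probe set, which the annotation gives to both Plekhj1 and Sf3a2, went the other way: its means were 9.42, 8.29 and 9.05, and it fell by 1.13 in shPhf5a (SE 0.11, limma adjusted p over all probe sets = 0.000128). Which gene that signal belongs to cannot be told from the table.

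Sf3a3, which connects SF3a with the U2 RNA, had 11.0014, 10.99 and 11.06 in shControl, 10.78, 10.91 and 10.81 in shPhf5a, and 10.41, 10.52 and 10.56 in shPaf1. The 3 groups were separate, with shPaf1 lowest. Sf3a3 was 1.44-fold lower than control in shPaf1 (-0.53, SE 0.06, adjusted p = 6.89e-05) and less so in shPhf5a (-0.18, SE 0.06, adjusted p = 0.0275). The knockdowns differed by 0.34 (95% interval 0.21 to 0.47, adjusted p = 0.00148). Sf3a1, a scaffold with SURP domains, had 10.70, 10.67 and 10.68 in shControl, 10.44, 10.61 and 10.32 in shPhf5a, and 10.70, 10.79 and 10.74 in shPaf1. It was lower in each shPhf5a array. Sf3a1 fell by 0.23 in shPhf5a (SE 0.07, adjusted p = 0.0278) and did not pass in shPaf1 (0.06, 95% interval -0.10 to 0.21, adjusted p = 0.609). These falls in shPhf5a were the weakest calls among the members. When shControl replicate 1, 2 or 3, shPhf5a replicate 1 or, last, shPhf5a replicate 3 was left out in turn, Sf3a1 was at -0.22, -0.23, -0.23, -0.22 and -0.16 (adjusted p from 0.0629 to 0.0929) and Sf3a3 at -0.19, -0.20, -0.16, -0.16 and -0.17 (from 0.0519 to 0.0915). Quantile normalization also ended both (-0.14 with adjusted p = 0.115 for Sf3a1, -0.10 with 0.166 for Sf3a3), as did, for Sf3a1, a fit of only the 6 arrays compared (0.0642).

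**Figure D2:**
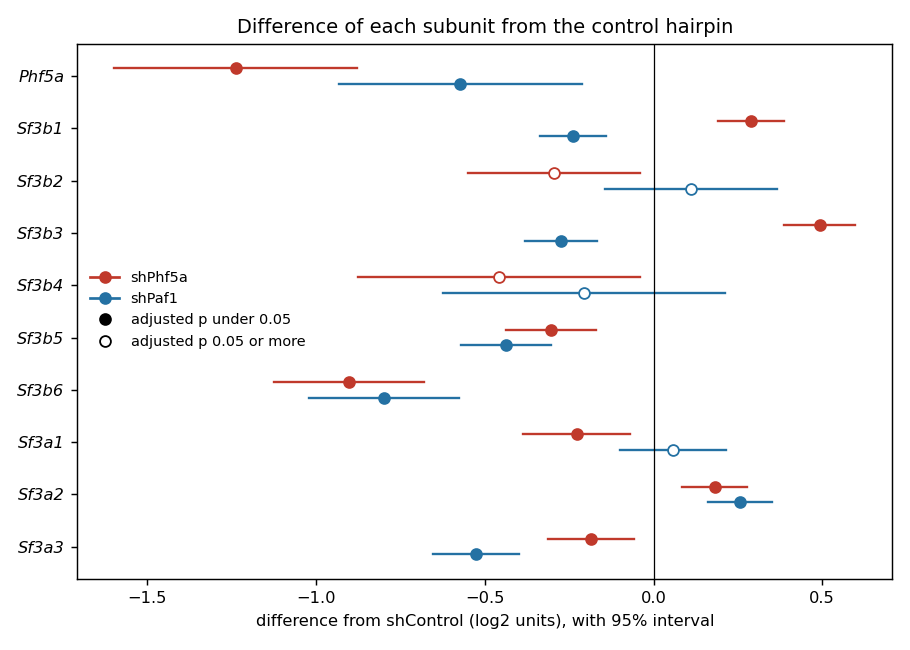
Difference of each subunit from shControl (log2 units, horizontal axis) in shPhf5a (red) and shPaf1 (blue), with 95% intervals from limma; filled points passed at adjusted p under 0.05. Sf3b1 and Sf3b3 lie on opposite sides of zero in the knockdowns (0.29 and -0.24, 0.49 and -0.27), and Sf3b5, Sf3b6 and Sf3a3 lie below zero in both.

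The direct comparison of the knockdowns called 3 members lower and 3 higher in shPhf5a, where 16.3% and 12.7% of all genes were called (27.4% and 20.7% of genes above the median level). Arrays did not overlap for 4 members lower and 3 higher, against 21.3% and 16.3% of all genes. Phf5a, Sf3b2 and Sf3a1 were lower in shPhf5a, and Sf3b1, Sf3b3 and Sf3a3 were higher. Sf3b2 differed by -0.41 (95% interval -0.66 to -0.15, adjusted p = 0.023) and Sf3a1 by -0.29 (-0.44 to -0.13, adjusted p = 0.0123). The Sf3b2 call was lost without shPhf5a replicate 3 (-0.42, adjusted p = 0.0539), shPaf1 replicate 1 (-0.39, 0.0727) or shPaf1 replicate 3 (-0.38, 0.0756). It was also lost in a fit of 6 arrays (0.0694) and with the mean of the Sf3b2 probe sets (-0.16, 0.171), and its size was -0.26 without shPhf5a replicate 1. That of Sf3a1 was lost without shPaf1 replicate 2 (-0.26, adjusted p = 0.0504). Sf3a2 differed by -0.08 (-0.17 to 0.02, adjusted p = 0.243) and Sf3b4 by -0.25 (-0.67 to 0.17, adjusted p = 0.396). Comparisons with shControl share its 3 arrays, so that only this contrast sets the knockdowns against each other without them.

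The DNA before the start sites of the members was also read, as a description only. RefSeq (GRCm38.p6) windows of 250 bases upstream of the annotated start were matched for 7 members, all but Phf5a, Sf3b4 and Sf3b5. There were 8 windows, since Sf3b2 had a second, overlapping one. The 4 printed belong to the pair that fell in both knockdowns with a window at hand (Sf3b6 and Sf3a3) and to the pair with opposite responses (Sf3b1 and Sf3b3), each 5′ to 3′ on the gene's strand. Capitals mark matches, on either strand, to any of the 5 short motifs spelled out after them.
Sf3b6 (chr12:4817358-4817607, plus strand): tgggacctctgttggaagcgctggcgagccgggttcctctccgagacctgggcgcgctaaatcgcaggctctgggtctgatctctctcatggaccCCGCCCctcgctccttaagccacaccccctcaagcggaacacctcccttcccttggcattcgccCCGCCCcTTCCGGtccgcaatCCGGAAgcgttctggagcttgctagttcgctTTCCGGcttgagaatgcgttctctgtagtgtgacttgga
Sf3a3 (chr4:124714611-124714860, plus strand): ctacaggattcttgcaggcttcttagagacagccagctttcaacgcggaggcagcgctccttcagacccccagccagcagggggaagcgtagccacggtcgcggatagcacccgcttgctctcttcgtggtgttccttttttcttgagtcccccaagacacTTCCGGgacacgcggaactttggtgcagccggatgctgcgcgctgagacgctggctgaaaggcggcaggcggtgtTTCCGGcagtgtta
Sf3b1 (chr1:55027479-55027728, minus strand): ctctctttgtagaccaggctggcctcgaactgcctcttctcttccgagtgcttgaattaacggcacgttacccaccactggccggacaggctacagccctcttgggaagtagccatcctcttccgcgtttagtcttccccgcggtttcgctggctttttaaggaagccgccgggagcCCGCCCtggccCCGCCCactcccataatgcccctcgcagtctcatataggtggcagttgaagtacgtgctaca
Sf3b3 (chr8:110846804-110847053, minus strand): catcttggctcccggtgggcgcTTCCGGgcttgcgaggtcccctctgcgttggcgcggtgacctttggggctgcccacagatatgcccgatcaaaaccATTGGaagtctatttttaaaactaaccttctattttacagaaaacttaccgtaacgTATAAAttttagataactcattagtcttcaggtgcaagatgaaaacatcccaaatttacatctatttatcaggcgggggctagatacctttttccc

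Motifs were counted per member, and the shares beside them are of windows. The core that ETS factors bind, CCGGAA, was found for 6 of the 7 members, with 3 matches in Sf3b6, 2 in Sf3a3 and none in Sf3b1. It was present in 12.0% of all 32851 windows in the RefSeq table, and in 22.1% of the 11135 windows of genes above the median level. The GC box, GGGCGG, was found for 4 of 7 members (Sf3b1, Sf3b6, Sf3a1 and Sf3a2), against 32.7% and 59.4%. A CCAAT box was found for 2 of the members, Sf3b2 and Sf3b3, against 33.9% and 35.7%. The TATA box, TATAAA, stood in the window of Sf3b3 alone, against 12.4% and 6.16%. The E-box, CACGTG, was in none of these windows, against 6.02% and 8.78%. G and C made up 45.6% of the Sf3b3 window and 54.0% to 65.2% of the others, with a median of 52.4% over all windows. The ETS core was thus held by members of either direction: Sf3b6 and Sf3a3, which fell in both knockdowns, Sf3b3 and Sf3a2, which rose in shPhf5a, and Sf3a1 and Sf3b2. Sf3b1 and Sf3b3 shared none of the 5 motifs. A match describes letters and not a bound site.

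Genes with the most similar profiles were listed for the knocked-down subunit and for the main scaffold. Likeness was the root mean square difference over the 9 arrays after each gene was centred on its own mean, among 10377 eligible genes. The 5 genes nearest to Phf5a were Coprs (0.08), Stoml2 (0.09), the cyclin gene Ccne1 (0.09), Zfp819 (0.10) and Alg14 (0.10). Of the members Sf3b6 was nearest to Phf5a (0.26) and Sf3b3 farthest (0.77). The 5 nearest to Sf3b1 were the deubiquitinase gene Usp9x (0.04), the kinetochore gene Cenpt (0.05), Dctn4 (0.06), Hykk (0.06) and Mtus1 (0.06). Usp9x, for example, had means of 11.41, 11.65 and 11.11 in shControl, shPhf5a and shPaf1. No other member was among either 5.

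The neighbours of SF3 in the spliceosome were examined in 4 lists of 46 genes, 40 of them measured. In shPhf5a 18 of the 40 fell and 9 rose, and in shPaf1 14 fell and 8 rose, with medians of -0.18 and -0.13. Of the 40, 39 lay above the median level, all but Snrnp35, and the 40 are read against the genes above it. In shPhf5a 45.0% of the 40 fell, against 35.2% of those genes, and 22.5% rose, against 26.9%. In shPaf1 35.0% fell, against 30.7%, and 20.0% rose, against 29.2%. The direct comparison called 10 lower and 10 higher in shPhf5a (25.0% each, against 27.4% and 20.7%), and 10 became 6 lower in a fit of 6 arrays.

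The protein core of U2 and the Sm ring, on which SF3a and SF3b sit, lay below the controls in both knockdowns. All 8 measured genes fell in shPhf5a (median -0.50), where 35.2% of genes above the median level fell. For each of the 8 the arrays lay below the controls without overlap in shPhf5a and also in shPaf1. That held for 25.9% and 25.0% of all genes. Snrpa1, the U2-specific A′ protein, had 10.80, 10.69 and 10.79 in shControl, 9.66, 10.14 and 9.92 in shPhf5a, and 9.92, 9.88 and 10.05 in shPaf1. Its differences were -0.86 in shPhf5a (SE 0.10, adjusted p = 0.000175) and -0.81 in shPaf1 (SE 0.10, adjusted p = 0.000207), with no overlap with the controls. The Sm genes Snrpd2, Snrpg and Snrpd1 fell by 0.56 (SE 0.09), 0.55 (SE 0.09) and 0.52 (SE 0.11) in shPhf5a. In shPaf1 5 of the 8 were called lower and none higher (median -0.30), where 30.7% of genes above the median level were called lower. Among the 5 were Snrpb2, the U2-specific B″ protein (-0.49, SE 0.07), Snrpg (-0.40, SE 0.09) and Snrpd2 (-0.36, SE 0.09). In shPhf5a 7 fell when shControl replicate 1, shControl replicate 2 or shPhf5a replicate 3 was left out, and all 8 without shPhf5a replicate 2. In shPaf1 all 8 fell in a fit of 6 arrays, and 4 fell without shControl replicate 2 or shPaf1 replicate 2. Sm genes have processed copies in the genome, and a probe set may read more than 1 of them.

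Factors that find the branch point and the 3′ splice site had calls in both directions. In shPhf5a 8 of 18 fell and 3 rose, with 5 rising after quantile normalization, and in shPaf1 7 fell and 3 rose. Among genes above the median level 35.2% fell and 26.9% rose in shPhf5a, and 30.7% fell and 29.2% rose in shPaf1. Dnajc8, a J-domain protein found with U2 snRNP, had 10.60, 10.48 and 10.42 in shControl, 8.69, 9.44 and 8.97 in shPhf5a, and 9.19, 9.25 and 9.49 in shPaf1. It fell by 1.47 (SE 0.16) in shPhf5a and by 1.19 (SE 0.16) in shPaf1 (adjusted p = 9.74e-05 and 0.000289). U2af1, which reads the AG at the intron's end, fell by 0.52 (SE 0.09) and 0.79 (SE 0.09), and its relative U2af1l4 by 0.70 (SE 0.10) and 0.99 (SE 0.10). Rbm17, a U2-associated splicing factor, rose by 0.62 in shPhf5a (SE 0.06, adjusted p = 3.8e-05) and was at -0.01 in shPaf1 (95% interval -0.14 to 0.12). Sugp1, which binds Sf3b1, rose by 0.50 in shPaf1 (SE 0.06) and was at 0.11 in shPhf5a (-0.01 to 0.24), passing there after quantile normalization (0.17, adjusted p = 0.0269).

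Smndc1 and the helicase gene Ddx46 were singled out after their values were seen. Smndc1, a Tudor-domain protein of early spliceosome assembly, had 10.30, 10.29 and 10.30 in shControl, 9.92, 10.02 and 9.98 in shPhf5a, and 10.58, 10.63 and 10.61 in shPaf1. The groups were far apart relative to their spread, in the order opposite to that of Sf3b1. The knockdowns differed by -0.63 (SE 0.04, adjusted p = 1.18e-05). Ddx46, the helicase that remodels U2 before it binds, was 0.47 higher in shPhf5a than in shPaf1 (SE 0.07, adjusted p = 0.000653), and stood at 0.47 and -0.003 against shControl.

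Of 7 measured genes whose proteins join SF3b in the activated spliceosome, 3 rose in shPhf5a and 4 in shPaf1, with 0 lower in either. Genes above the median level rose in 26.9% and 29.2% of cases, and fell in 35.2% and 30.7%. Rbmx2, singled out after its values were seen, was at -0.21 in shPaf1 (adjusted p = 0.0606), with its arrays all below the controls. In shPaf1 1 gene was called lower, beside 4 higher, after quantile normalization, among genes above the median level, with the mean over probe sets, with array weights, in a fit of 6 arrays, and without shPhf5a replicate 1 or replicate 2. In shPhf5a 5 rose after quantile normalization. Cwc22, which loads the exon junction complex, had 9.13, 9.15 and 9.17 in shControl, 10.44, 10.07 and 10.68 in shPhf5a, and 10.79, 10.90 and 11.01 in shPaf1. It rose by 1.24 (SE 0.13, adjusted p = 6.66e-05) and 1.75 (SE 0.13, adjusted p = 7.43e-06). Cwc22 has extra copies in some mouse strains, so its probe set may read several. The helicase gene Aqr rose by 0.59 (SE 0.05) and 0.47 (SE 0.05), and Bud13, a subunit of the RES complex, by 0.34 (SE 0.06) and 0.23 (SE 0.06). Gpkow rose by 0.46 in shPaf1 (SE 0.12, adjusted p = 0.0158), a call lost without shControl replicate 2 (0.40, adjusted p = 0.0652) or shPaf1 replicate 1 (0.34, 0.0574).

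In the minor spliceosome, whose U11/U12 particle shares SF3b, 3 of 7 genes rose and 2 fell in shPhf5a. The shares of genes above the median level were 26.9% higher and 35.2% lower there, and 29.2% and 30.7% in shPaf1. A fit of those genes leaves out Snrnp35. In it 2 of 6 rose and 3 fell in shPhf5a, and 0 rose and 2 fell in shPaf1. Snrnp25, a U11 protein, had 10.59, 10.52 and 10.49 in shControl, 9.07, 9.64 and 9.09 in shPhf5a, and 9.97, 9.66 and 9.81 in shPaf1. It fell by 1.27 (SE 0.14) in shPhf5a and by 0.72 (SE 0.14) in shPaf1, with adjusted p = 0.000104 and 0.00261. Zmat5 fell by 0.67 in shPhf5a (SE 0.11, adjusted p = 0.000825) and was at 0.13 in shPaf1 (95% interval -0.11 to 0.38). Snrnp35 and Rnpc3, both RNA-binding proteins of the particle, rose by 0.51 (SE 0.06) and 0.49 (SE 0.06) in shPhf5a. In shPaf1 2 of 7 fell, Snrnp25 and Zcrb1 (-0.40, SE 0.06), and 1 rose, Snrnp35 (0.16, SE 0.06, adjusted p = 0.0434). That rise was lost after quantile normalization, which left 2 lower and 0 higher (Snrnp35 adjusted p = 0.0708), after centring of each array (0.0665), with a trended and robust variance (0.0886), and when shControl replicate 1, shControl replicate 2 or any 1 shPaf1 array was left out (0.13 to 0.18, adjusted p from 0.0583 to 0.152). With array weights, in a fit of 6 arrays or without shPhf5a replicate 2, 2 rose, Rnpc3 being the second (adjusted p = 0.0156, 0.0202 and 0.0178).

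**Figure D3:**
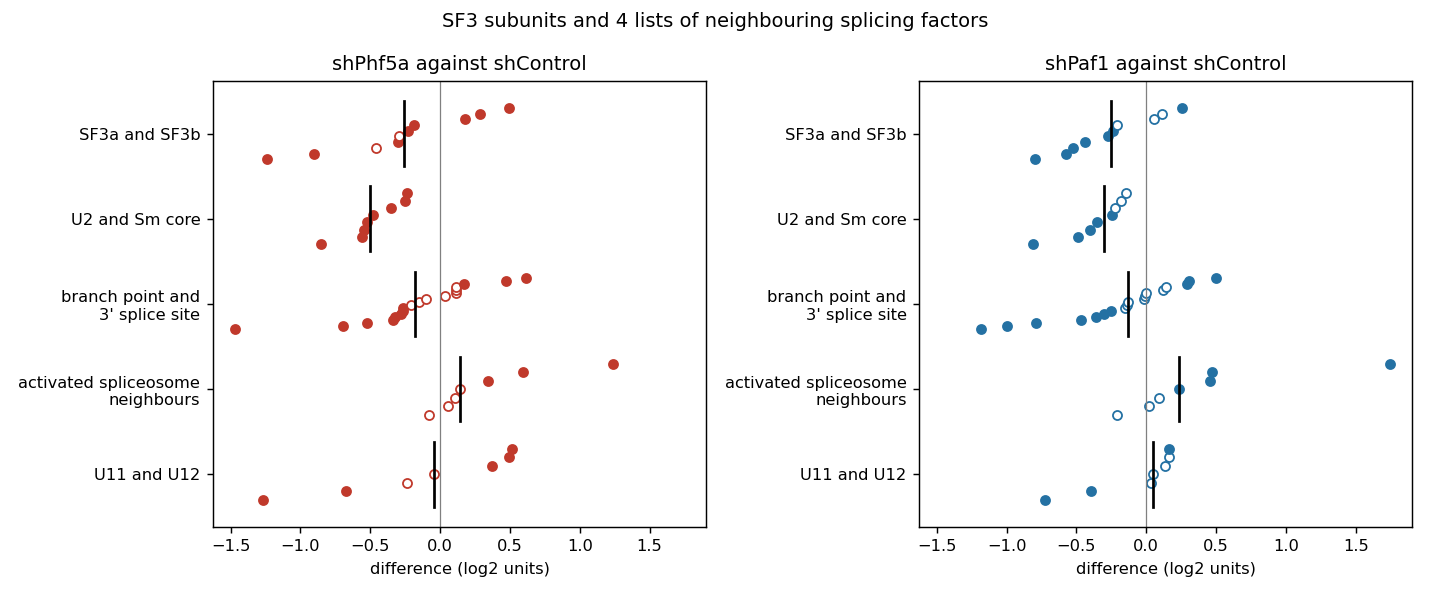
Differences from shControl (log2 units, horizontal axis) of the 10 SF3 members and of the 40 genes of the neighbouring lists, in shPhf5a (left) and shPaf1 (right); each point is a gene, filled where adjusted p was under 0.05, and black bars are list medians. All 8 U2 and Sm genes lie below zero in both panels (medians -0.50 and -0.30), whereas the neighbours in the activated spliceosome lie mostly above it.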

How the data were processed

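The log2 values were deposited by the authors, 1 per probe set and array. How background was removed, how arrays were normalized, with which software and on which log base is not given in the sources used here; log2 was inferred from the range (4.35 to 13.7). Per the labels' protocols, whole-transcript kits made labelled cDNA from 125 ng of total RNA. Of 33793 probe sets 23521 had 1 gene symbol, and the brightest per gene was kept (22180 genes). limma 3.58.1 in R 4.3.3 was fitted with 1 mean per group over all 9 arrays, with eBayes and Benjamini-Hochberg adjustment at 0.05. p-values measure the spread between arrays, which may be technical. No detection calls, scan dates or slides were used here, and the number of arrays limits precision. The scripts were tested on simulated data.

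Members and lists were chosen with earlier results of these data known. Named were all members, up to 4 called genes with the largest difference per list and control comparison, and the 5 genes nearest in profile to Phf5a and Sf3b1. Those 5 came from genes above the median level, without unnamed loci, small RNAs, or olfactory and vomeronasal receptor genes. Alternatives were quantile normalization, array centring, genes above the median, mean over probe sets, all probe sets, trended and robust variance, array weights, 6-array fits, a replicate block and leaving out each array. Lists of splicing factors are described by counts and medians, with no set test.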

Additional observations from a re-analysis of the deposited data

How the results depend on the processing

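Of 30 differences of members (10 genes in 3 comparisons), 22 kept their call in all 18 alternatives, or 17 for Sf3b4, which lies below the median level, and 20 also their sign. Sf3b2 in shPaf1, not called, was at -0.03 with the mean over probe sets, and Sf3b6 between the knockdowns, not called, at 0.01 without shPhf5a replicate 1. The 8 whose call changed were those of Sf3b2, Sf3b4, Sf3a1 and Sf3a3 in shPhf5a, Phf5a in shPaf1, and Sf3b2, Sf3b5 and Sf3a1 between the knockdowns. The count of 5 members lower in shPhf5a became 3 after quantile normalization and ranged from 3 to 7 without 1 array. Of the other U2 and U12 factors, 10 were lower in shPhf5a than in shPaf1, and 6 when only those 6 arrays were fitted. In shPaf1 the U2 and Sm core list had 5 lower, 8 in a fit of 6 arrays, and 4 without shControl replicate 2 or shPaf1 replicate 2. The cause of these changes was not tested. No alternative shifted the median of all genes by over 0.1. Same-numbered arrays correlated from -0.06 to 0.11 in their deviations from the group means, so that numbers were not taken to pair arrays. With the replicate block 5 members were lower and 3 higher in shPhf5a, and 6 and 1 in shPaf1. Signal over background was not measured here, so what it limits for dim genes such as Sf3b4 was not tested.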
